A study of Rattus norvegicus with 3 samples.

Results

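The genes described here encode the major histocompatibility complex (MHC) of the rat, called RT1, and the machinery of antigen presentation. They were chosen by gene name: every row whose name begins with RT1-, and the rows of B2m, Cd74, Tap1, Tap2, Tapbp and its relative Tapbpl, Ciita, Nlrc5, Erap1, Calr, Pdia3, Canx, Cd80, Cd86 and Cd40. The rule found 60 of the 30957 rows in each file. They comprised 34 class I heavy chain rows, the class I light chain B2m, 11 class II rows with the invariant chain Cd74, 9 rows of peptide loading genes, 2 of regulators and 3 of costimulatory molecules. Tap2 was the one name with more than 1 row. All 44 RT1 rows lay on chromosome 20 of the genome build Rnor_6.0.

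Messenger RNA was sequenced from the motor cortex of 3 male Sprague-Dawley rats, numbered 12, 24-4 and 33. Each had undergone cerebral ischemia with reperfusion, in which blood flow to the brain is stopped and restored, and each was treated with electroacupuncture at GB20 (Fengchi). The labels give a time of 8 weeks and do not say what it is counted from. There was 1 group, so levels and their spread over treated rats can be described, and no effect of ischemia or of electroacupuncture was compared. Each rat is 1 library, with estimated depths of 13000000 to 17230000 fragments. Markers of cortical neurons were present in every rat, with Slc17a7, the vesicular glutamate transporter, at an FPKM of 367 to 709 and Neurod6 at 34.9 to 47.0. Their levels differed between the rats. In rats 12, 24-4 and 33 Nrgn had 931, 770 and 383. Snap25 had 1178, 379 and 440, and Gad1 had 64.1, 47.3 and 32.1 in that order. FPKM, the number of fragments scaled to gene length and library size, is the deposited unit, and values below are in the order of rats 12, 24-4 and 33.

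MHC class I molecules display peptides from the cytosol to CD8 T cells. A heavy chain pairs with B2m and is filled in the endoplasmic reticulum by the transporter Tap1-Tap2, tapasin and chaperones. Class II molecules display peptides from the endosome to CD4 T cells. Their alpha and beta chains are held by Cd74 until DM molecules exchange its fragment for a peptide. Neurons have little MHC at rest, and in brain tissue microglia, macrophages at the borders and vessel cells are the usual sources. Class I genes of the rat are many, closely alike and differ in number between MHC haplotypes, and Sprague-Dawley rats are outbred.

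Of the 60 rows, 32 had a mean FPKM of at least 1 and were tested, 5 were listed at 0 in all rats (38.7% of all rows in the files were), and 23 lay between. B2m (ENSRNOG00000017123, chromosome 3, 114087287 to 114093309) was the highest MHC chain. It had an FPKM of 134, 178 and 511, a mean of 274 ± 206 (SD, n = 3 rats, here and below). Rat 33 stood 3.81-fold above rat 12 and 2.88-fold above rat 24-4. Folding genes of the endoplasmic reticulum, which serve glycoproteins at large and not only class I, were of the same order: Calr had 314 ± 58.3, Pdia3 154 ± 49.2 and Canx 131 ± 29.5. Cd74 followed with 42.5 ± 34.7, and RT1-A2 with 35.7 ± 44.9. The median of log2(FPKM + 1) over a role was 3.26 ± 0.70 for peptide loading, 0.86 ± 0.38 for class II and 0.60 ± 0.35 for class I heavy chain rows. That order held in each rat, but the class I rows include pseudogenes and rows listed at 0. Over rows with a mean FPKM of at least 1 the medians of class I and class II were 1.99 and 2.19.

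**Figure D1:**
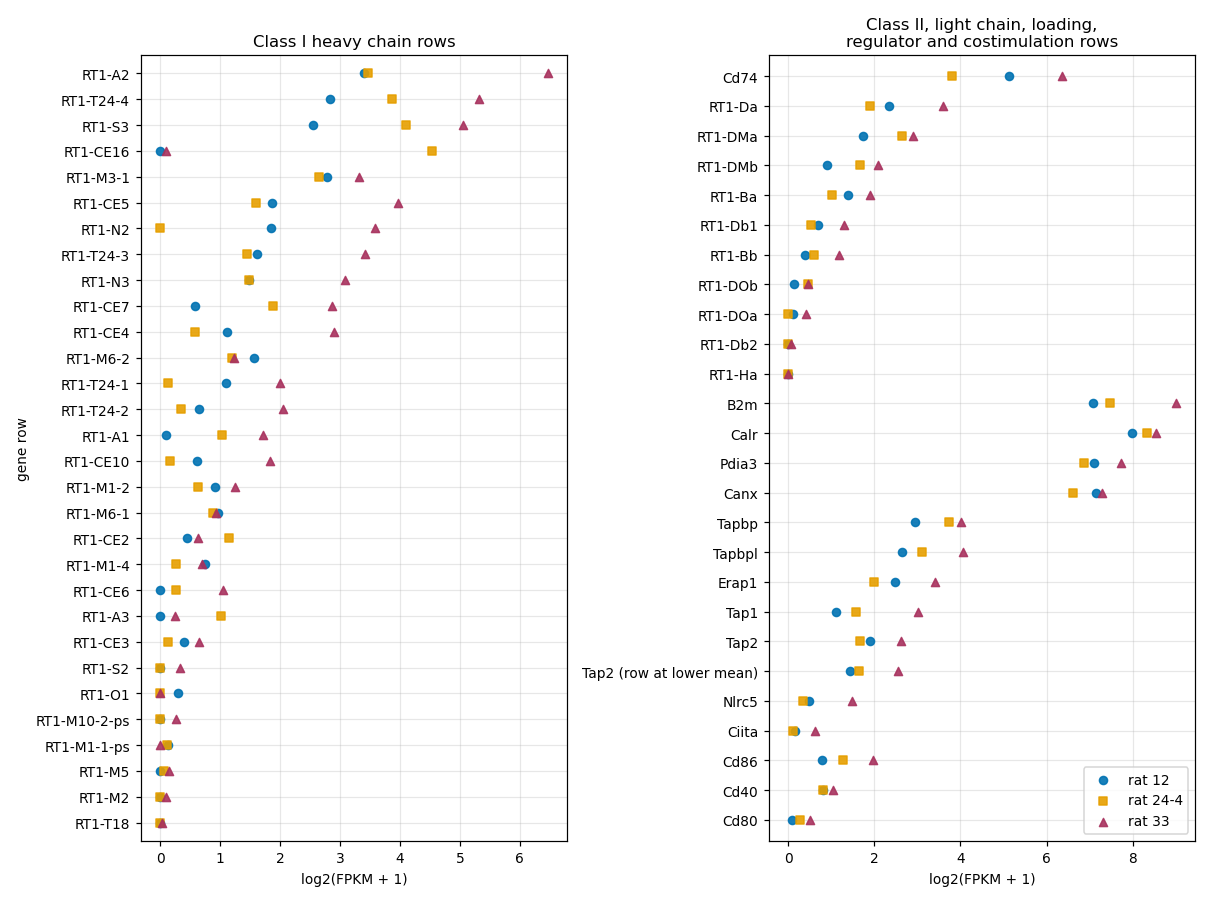
FPKM of each member row on the log2(FPKM + 1) axis, 1 symbol per rat, with class I heavy chain rows at left (the 4 listed at 0 in all rats are left out) and the other roles at right. Rat 33, the triangle, is rightmost in most rows, while RT1-CE16 is high in rat 24-4 alone at 22.2, and Canx was highest in rat 12 under 2 other scalings.

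Class I heavy chain messages differed between the rats in amount. Their FPKM summed to 45.0, 83.1 and 242, so that rat 33 had 5.38 times the sum of rat 12 and 2.91 times that of rat 24-4. B2m had 2.98, 2.14 and 2.11 times the summed heavy chain FPKM, per length of gene. RT1-A2 (ENSRNOG00000030712, chromosome 20, 5374985 to 5378539), a classical class Ia gene, was the highest heavy chain row on average. It had 9.50, 10.1 and 87.5, which puts rats 12 and 24-4 close together and rat 33 at 9.21-fold and 8.68-fold above them. RT1-A1, whose span encloses RT1-A2 on the same strand, had 0.0691, 1.06 and 2.28. Each of the 2 rows is uncertain to the extent that fragments were shared.

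The leading class I row was not the same in each rat. RT1-A2 led in rats 12 and 33, with 21.1% and 36.2% of the class I sum, and had 12.1% in rat 24-4, after RT1-CE16, RT1-S3 and RT1-T24-4. In rat 24-4 the leading row was RT1-CE16 (ENSRNOG00000047706, chromosome 20, 3791407 to 3794027), with 26.8%. RT1-CE16 was listed at 0 in rat 12, at 22.2 in rat 24-4 and at 0.0661 in rat 33. At the estimated depths this is 383 fragments per kilobase in rat 24-4 and 0.860 in rat 33. It had the largest spread of all members, an SD of 2.59 on the log2(FPKM + 1) scale, and ranked 15th of 13754 rows in limma's test of variability between rats (adjusted p = 0.0566).

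RT1-A3 overlaps RT1-CE16 on the same strand, at 3791629 to 3796275 of chromosome 20, and had the same order of rats. It was listed at 0 in rat 12 and had 1.01 and 0.183 in rats 24-4 and 33. Fragments of this pair may have been split between the rows, which leaves RT1-A3 uncertain. Both rows were high in rat 24-4 and low or at 0 in the others.

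The promoters of RT1-A2 and RT1-CE16 are shown because these rows led the class I sum. They are RefSeq sequences of assembly GRCr8, from 250 bases before to 50 after the start of the gene, and their coordinates are not those of the deposited files. RT1-A2 is at chr20:4872621-4872920, plus strand, and RT1-CE16 at chr20:3265394-3265693, minus strand. Each is written 5′ to 3′ in lower case. Capitals mark any match, on either strand and overlaps included, to 4 motifs: an interferon response motif (GAAA, any 2 bases, GAAA), the Y box core (CCAAT), the X box core (GCAACNG) and a motif like that of NF-kB (GGGA, any 4 bases, CC).
RT1-A2: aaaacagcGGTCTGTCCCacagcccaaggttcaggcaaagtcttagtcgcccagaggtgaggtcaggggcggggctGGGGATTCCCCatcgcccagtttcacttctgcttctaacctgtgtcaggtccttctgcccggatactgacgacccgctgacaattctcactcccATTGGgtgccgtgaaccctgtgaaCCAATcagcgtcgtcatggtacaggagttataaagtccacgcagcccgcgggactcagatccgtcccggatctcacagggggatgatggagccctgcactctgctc
RT1-CE16: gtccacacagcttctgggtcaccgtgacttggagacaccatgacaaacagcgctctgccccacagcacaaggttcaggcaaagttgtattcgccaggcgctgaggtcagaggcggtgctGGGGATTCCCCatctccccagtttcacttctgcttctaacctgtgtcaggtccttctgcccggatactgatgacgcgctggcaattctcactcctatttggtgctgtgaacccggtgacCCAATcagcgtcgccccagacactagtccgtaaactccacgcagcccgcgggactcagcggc
RT1-A2 held 3 matches to the motif like that of NF-kB and 2 to CCAAT, and RT1-CE16 held 2 and 1. Neither window held the interferon response motif in these letters, although class I genes are known targets of interferon. Of 26 class I promoters in the table, 11 (42.3%) held the motif like that of NF-kB, 17 (65.4%) held CCAAT and 3 (11.5%) the interferon response motif. Of all 33469 promoters of this length, 19.3%, 37.5% and 3.92% did. A match of letters is a description and not a binding site.

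The nonclassical class Ib genes of the N, O, S and T group made up 43.2%, 40.4% and 43.8% of the class I sum. RT1-T24-4 had 6.12, 13.6 and 39.1, and RT1-S3 had 4.88, 16.1 and 32.4, both lowest in rat 12 and highest in rat 33. RT1-T24-3 had 2.08, 1.72 and 9.74, and RT1-N3 had 1.80, 1.79 and 7.47, so that rats 12 and 24-4 lay together and rat 33 stood apart. RT1-N2 (ENSRNOG00000029386, chromosome 20, 3146856 to 3150852) had 2.62 in rat 12, was listed at 0 in rat 24-4 and had 11.01 in rat 33. That is 40.1 and 143 fragments per kilobase in rats 12 and 33. The library with RT1-N2 at 0 is the one in which RT1-CE16 was high. RT1-T24-1 had 1.13, 0.0962 and 2.995, and RT1-T24-2, which overlaps it, had 0.568, 0.272 and 3.14.

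Genes of the CE group, which hold many of the class I copies, summed to 5.52, 29.1 and 32.2. Without RT1-CE16 most of that sum came from overlapping rows, so single values are uncertain. RT1-CE5 had 2.64, 2.03 and 14.7, RT1-CE4 had 1.17, 0.503 and 6.44, and RT1-CE7 had 0.496, 2.68 and 6.30. RT1-CE10 had 0.533, 0.119 and 2.55. RT1-CE6 was listed at 0 in rat 12 and had 0.195 and 1.08 in the others. A row outside the naming rule, LOC100364500, described as like locus CE11 and named after its values were seen, had 0.354, 0.748 and 1.88. Genes of other functions lie within the span of RT1-CE2, RT1-CE4 and RT1-CE7. The RNA helicase gene Ddx39b had 61.0, 70.4 and 70.6, the proton pump gene Atp6v1g2 had 129, 166 and 90.5, and Nfkbil1 had 5.32, 8.22 and 3.70. Ddx39b was lowest in rat 12 and nearly equal in the others, while Atp6v1g2 and Nfkbil1 were lowest in rat 33.

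Genes of the M group differed little between the rats. RT1-M3-1, which presents formylated peptides in rodents, had 5.90, 5.30 and 8.98 (6.72 ± 1.98). RT1-M6-2 had 1.96, 1.29 and 1.34 and was the tested member highest in rat 12. RT1-M6-1, which overlaps it, had 0.898 ± 0.0524. Of the 12 rows of this group 3 were listed at 0 in all rats, and the group summed to 10.5, 8.30 and 13.6. Its share of the class I sum was 23.3%, 9.99% and 5.62% in rats 12, 24-4 and 33.

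**Figure D2:**
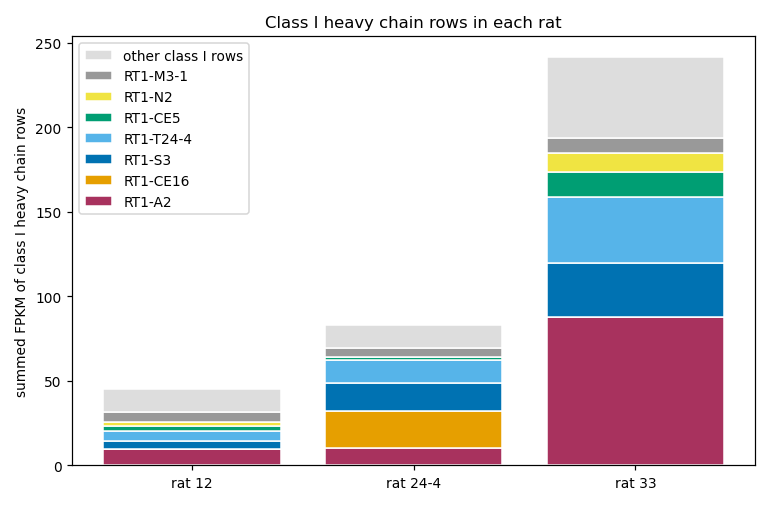
Summed FPKM of the 34 class I heavy chain rows in each rat, stacked by row, with the axis from 0. The sums are 45.0, 83.1 and 242 in rats 12, 24-4 and 33. RT1-CE16 (orange) is visible in rat 24-4 alone.

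Rows listed at 0 in some rats and not in others were more frequent among the members than in the whole table. Of the 60 rows, 13 (21.7%) were at 0 in 1 or 2 rats, against 8.3% of all 30957 rows. They were 11 class I rows and the class II rows RT1-DOa and RT1-Db2. Only 4 of them reached an FPKM of 1 in another rat, against 0.413% of all rows: RT1-CE16, RT1-N2, RT1-A3 and RT1-CE6. The other 9 had no value above 0.341, that of RT1-DOa in rat 33, which is 4.43 fragments per kilobase. An FPKM of 0.196, 0.174 and 0.231 corresponds to 3 fragments on a gene of 1 kilobase in rats 12, 24-4 and 33. Hprt1, a purine salvage gene used by every cell, is also listed at 0 in all rats in each of its 2 rows, so a 0 can be a failed estimate.

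**Figure D3:**
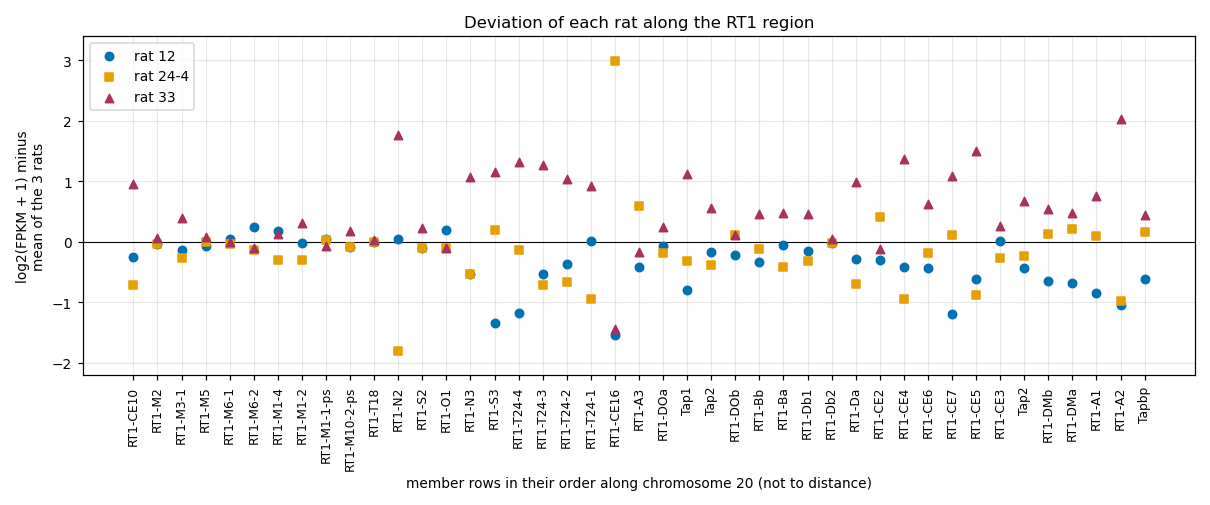
Deviation of each rat from the mean of the 3 rats on the log2(FPKM + 1) scale, for the member rows of chromosome 20 above 0, in chromosomal order and not to distance. Rat 33 lies above 0 in most rows, with RT1-CE16 and RT1-N2 standing out for rat 24-4 in opposite directions.

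Class II rows had a lower summed FPKM than class I heavy chain rows in every rat. The RT1 class II rows, without Cd74, summed to 9.94, 12.6 and 27.1, so the class I sum was 4.52, 6.61 and 8.93 times as high. With RT1-CE16 left out of the class I sum, the ratios were 4.52, 4.84 and 8.93. The class II sum leaves out LOC100909593 and LOC100909630, the further M chain rows given below. With Cd74 counted, class II rows summed to 43.8, 25.5 and 108, against 45.0, 83.1 and 242 for class I heavy chain rows. Cd74, the invariant chain, had 33.9, 12.9 and 80.8. It was 3.41, 1.03 and 2.98 times the RT1 class II sum without Cd74, which also counts the DM and DO rows. In rat 24-4 that sum held RT1-DMa at 5.25 and RT1-DMb at 2.20. There the alpha chains RT1-Da and RT1-Ba together had 3.80 and their beta chain rows 0.946, against 12.9 for Cd74. RT1-Da, the alpha chain of the DR type, had 4.03, 2.76 and 11.1, the highest of the RT1 class II rows in rats 12 and 33 and below RT1-DMa in rat 24-4. RT1-Ba, the alpha chain of the DQ type, had 1.61, 1.04 and 2.75. Both alpha chains and Cd74 were lowest in rat 24-4 and highest in rat 33.

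The beta chain rows RT1-Db1, RT1-Bb and RT1-Db2 had a lower FPKM than the rows of their alpha chains. Each had a mean under 1 and was not tested. How well alleles of these outbred rats match the build at either chain was not tested. RT1-Db1 had 0.829 ± 0.541, RT1-Bb 0.696 ± 0.506, and RT1-Db2 was listed at 0, 0 and 0.0475. The alpha chains RT1-Ba and RT1-Da together had 5.06 ± 1.08 times the FPKM of these beta chains. RT1-DMa and RT1-DMb, which load class II, had another order, lowest in rat 12: 2.35, 5.25 and 6.51 for RT1-DMa and 0.867, 2.20 and 3.26 for RT1-DMb. The build holds further rows described as M alpha and M beta chains, LOC100909593 (3.25, 8.42 and 9.12) and LOC100909630 (3.52, 5.81 and 11.8), named after their values were seen. How fragments were divided between these copies was not tested, and levels of DM are thus uncertain. RT1-DOa and RT1-DOb, which restrain DM in B cells, had no value above 0.378, and RT1-Ha was listed at 0 in all rats.

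Class II promoters carried the X and Y boxes, the elements through which the factors RFX and NF-Y recruit Ciita. CCAAT was in 10 of 10 promoters in the table and the X box core in 6 of 10 (60.0%), against 37.5% and 12.2% of all promoters. RT1-Da (chr20:4515165-4515464, plus strand) and RT1-Ba (chr20:4576807-4577106, plus strand) are shown, since they were the highest RT1 class II chains outside the DM pair. Both have the X box core upstream of the Y box, which reads as ATTGG on this strand.
RT1-Da: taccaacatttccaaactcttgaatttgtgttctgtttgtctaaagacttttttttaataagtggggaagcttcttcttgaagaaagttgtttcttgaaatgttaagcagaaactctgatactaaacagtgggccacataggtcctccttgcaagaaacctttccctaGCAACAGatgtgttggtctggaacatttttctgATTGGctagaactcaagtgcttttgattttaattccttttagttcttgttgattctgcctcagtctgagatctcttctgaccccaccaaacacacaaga
RT1-Ba: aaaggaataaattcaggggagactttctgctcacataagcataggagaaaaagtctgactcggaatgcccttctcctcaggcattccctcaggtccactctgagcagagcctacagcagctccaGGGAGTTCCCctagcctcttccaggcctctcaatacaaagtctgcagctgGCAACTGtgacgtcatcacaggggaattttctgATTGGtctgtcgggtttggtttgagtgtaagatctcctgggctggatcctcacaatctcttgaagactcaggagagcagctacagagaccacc
The interferon response motif was in none of the 10 class II promoters. These windows are short, and no match says only that the letters are not in them.

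The class II regulator Ciita and its class I counterpart Nlrc5 were close to the floor. Ciita had 0.118, 0.0735 and 0.543, and Nlrc5 had 0.397, 0.273 and 1.79. Both were highest in rat 33, and their values in rats 12 and 24-4 were low and are not put in order. Of 5 tested rows of factors that bind the X and Y boxes 2 were highest in rat 33, against 42.0% of all tested rows. Limma called 0 of the 5, with 0 at an unadjusted p under 0.05. Nfyc had 22.2 ± 1.10, Nfyb 16.5 ± 2.61, Rfx5 10.1 ± 1.34, Rfxank 7.80 ± 1.58 and Nfya 4.96 ± 1.38. Rfxap was listed at 0 in all rats in each of its 2 rows.

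Peptide loading genes fell into a pair of tiers. Calr had 253, 321 and 369, Canx had 141, 97.5 and 154, and Pdia3 had 137, 116 and 210, with the highest value less than 2-fold above the lowest in each. Under 2 other scalings Canx was highest in rat 12 instead of rat 33. The dedicated class I loading genes were lower and differed more. Tap1 (chromosome 20, 3979035 to 3989669), a subunit of the peptide transporter, had 1.16, 1.996 and 7.10, with rat 33 at 6.12-fold above rat 12. Tap2, its partner, had 2.74, 2.20 and 5.13 in the row at 3995544 to 4009587 and 1.70, 2.11 and 4.89 in the row at 5198258 to 5212624. The rows carry 1 name at 2 places of the build, so fragments may have been split between copies.

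Tapbp, tapasin, which bridges the transporter and the heavy chain, had 6.71, 12.3 and 15.2. Tapbpl, a related editor of peptides, had 5.25, 7.62 and 15.8. Erap1, which trims peptides, had 4.597, 2.97 and 9.62. Each of the 9 loading rows was highest in rat 33, against 42.0% of all tested rows, 8 of them under every scaling tried.

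The interferon response motif stood in 3 of 6 promoters of loading genes, those of Tap1, Tap2 and Tapbp, and in that of B2m, against 3.92% of all promoters. B2m (chr3:129549080-129549379, plus strand), Tap1 (chr20:4668494-4668793, minus strand) and Tapbp (chr20:4967828-4968127, minus strand) are shown for this shared motif, which in Tap1 reads on the opposite strand and in Tapbp occurs in 2 overlapping copies.
B2m: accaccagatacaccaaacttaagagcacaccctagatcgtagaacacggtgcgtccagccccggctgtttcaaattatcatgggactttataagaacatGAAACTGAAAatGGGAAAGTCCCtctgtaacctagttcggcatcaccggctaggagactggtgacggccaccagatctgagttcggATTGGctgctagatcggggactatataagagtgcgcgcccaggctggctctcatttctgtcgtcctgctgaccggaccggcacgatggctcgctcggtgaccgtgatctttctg
Tap1: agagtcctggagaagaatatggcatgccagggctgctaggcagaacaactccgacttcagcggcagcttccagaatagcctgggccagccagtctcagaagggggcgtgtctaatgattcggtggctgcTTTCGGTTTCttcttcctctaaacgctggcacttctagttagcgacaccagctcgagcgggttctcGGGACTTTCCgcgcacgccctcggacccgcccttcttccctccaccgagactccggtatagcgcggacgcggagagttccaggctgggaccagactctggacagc
Tapbp: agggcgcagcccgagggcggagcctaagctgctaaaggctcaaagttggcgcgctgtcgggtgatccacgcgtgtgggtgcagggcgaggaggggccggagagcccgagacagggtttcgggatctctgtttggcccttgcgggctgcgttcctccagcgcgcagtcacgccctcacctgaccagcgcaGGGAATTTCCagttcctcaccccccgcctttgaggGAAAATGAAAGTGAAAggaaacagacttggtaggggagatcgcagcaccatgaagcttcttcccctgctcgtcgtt
Each of these windows also held the motif like that of NF-kB, with 2 matches in B2m and 1 in the others.

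Costimulatory genes, whose products give T cells the second signal, were low. Cd86 had 0.712, 1.42 and 2.92, Cd40 had 0.857 ± 0.175 and Cd80 had 0.236 ± 0.181. All were highest in rat 33. Cd86 exceeded Cd80 by 1.05 ± 0.39 on the log2(FPKM + 1) scale, and in each of the 3 rats. Of 10 other costimulatory genes, limma called 0 of 4 tested, with 0 at an unadjusted p under 0.05. Of the 4, 2 were highest in rat 33 and 2 in rat 24-4, against 42.0% and 34.2% of all tested rows. The 4 genes were Cd83 (10.8, 12.7 and 10.1), Icoslg (5.78 ± 2.70), Cd274 (2.19 ± 0.882) and Tnfsf9 (1.19 ± 0.126).

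Pairs of genes were compared within rats by an exact sign-flip permutation test, two-sided, which cannot give a p under 0.25 with 3 rats. Of 10 pairs, 7 had 1 sign in all rats (exact p = 0.25, adjusted p = 0.357). B2m exceeded Cd74 by 2.76 ± 0.87, Cd74 exceeded RT1-Da by 2.48 ± 0.51, RT1-Da exceeded RT1-Ba by 1.17 ± 0.45 and Calr exceeded Canx by 1.27 ± 0.44. Nlrc5 exceeded Ciita by 0.47 ± 0.33, and of the immunoproteasome subunits Psmb8 minus Psmb9 was -0.63 ± 0.36. Tap1 minus Tap2 was -0.79, -0.09 and 0.40 in rats 12, 24-4 and 33, with the higher of the Tap2 rows (exact p = 0.75), and its average changed sign with the lower one. Tapbp minus Tapbpl was 0.30, 0.63 and -0.05, and Canx minus Pdia3 was 0.04, -0.25 and -0.44.

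Rat 33 had the highest value in most members. Of the 32 tested rows, 30 were highest in rat 33, against 42.0% of all 13754 rows tested, and 29 after scaling by the median of ratios (34.9% of all rows) or without the mitochondrial genome (37.6%). RT1-CE16 and RT1-M6-2 were the exceptions, joined by Canx under those scalings. A row can pass the filter through a single rat, which was so for RT1-CE10 and RT1-T24-2 through rat 33 and for RT1-CE16 through rat 24-4. Over every member above 0, 47 of 55 were highest in rat 33, against 44.6% of all rows above 0. Of the 32, 17 were lowest in rat 24-4 and 15 in rat 12, against 33.3% and 37.9% of all tested rows.

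By size, 22 tested members were at least 2-fold higher in rat 33 than in rat 12 on the FPKM + 1 scale, against 8.91% of all tested rows. Between rats 33 and 24-4 it was 15, against 7.72%. In the other direction, 0 members were at least 2-fold lower in rat 33 than in rat 12 (4.22% of all tested rows), and 1, RT1-CE16, than in rat 24-4 (3.79%). These comparisons share rat 33. The median difference of the tested members was 1.22 from rat 12 and 0.98 from rat 24-4 on the log2 scale, where all tested rows had 0.10 and 0.07. Class I heavy chain rows had medians of 1.67 and 1.63, class II rows 1.19 and 0.88, and loading rows 0.92 and 0.92. Rats 24-4 and 12 differed by a median of -0.07, so the rows did not share a direction there.

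**Figure D4:**
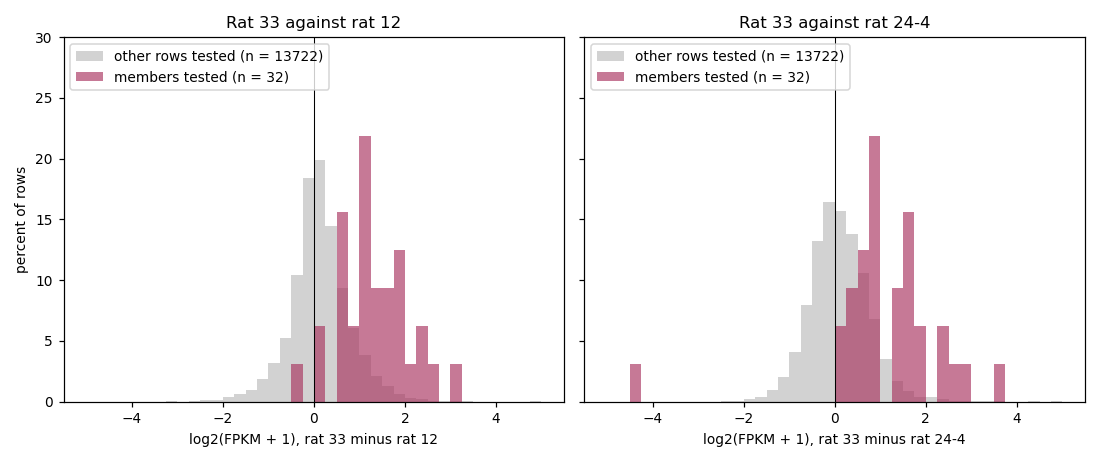
Distribution of differences on the log2(FPKM + 1) scale for 32 tested members (red) and the other tested rows (grey), as percent of rows, with values past the ends drawn in the last bins. Medians of the members are 1.22 for rat 33 minus rat 12 and 0.98 for rat 33 minus rat 24-4. The single member at the far left of the right panel is RT1-CE16.

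No member passed the test of variability between rats. In that test limma sets the spread of a row over the 3 rats against the spread usual for its level. It called 0 of 32 members at an adjusted p under 0.05, against 0.102% of 13754 rows. A row that was not called is not thereby shown to be alike in the 3 rats. At an unadjusted p under 0.05 there were 16 of the 32 members, against 5.96% of rows. They were 12 of 16 class I heavy chain rows, B2m, Cd74, RT1-Da and Tap1. After RT1-CE16 the lowest adjusted p-values were 0.148 for RT1-A2, 0.202 for RT1-N2, 0.393 for RT1-S3, 0.394 for RT1-T24-4 and 0.397 for Cd74. The median SD of the tested members was 0.87, and that of all tested rows 0.32.

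Calls depended on the setting. RT1-CE16 passed with limma when FPKM was rescaled to a common sum (adjusted p = 0.0328) or by the median of ratios (adjusted p = 0.0413), and its adjusted p ran up to 0.985 without a filter. Without rat 12, limma called 4 members, RT1-CE16, RT1-A2, RT1-N2 and Cd74, and without rat 33 it called RT1-CE16 and RT1-N2, with the prior estimated anew each time. Calls over all rows rose too, from 14 of 13754 to 104 of 13825 without rat 12 and 64 of 13460 without rat 33. Chaperones and M genes lay at the other end, with an SD of 0.27 for Calr, 0.35 for Canx, 0.35 for RT1-M3-1 and 0.21 for RT1-M6-2.

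**Figure D5:**
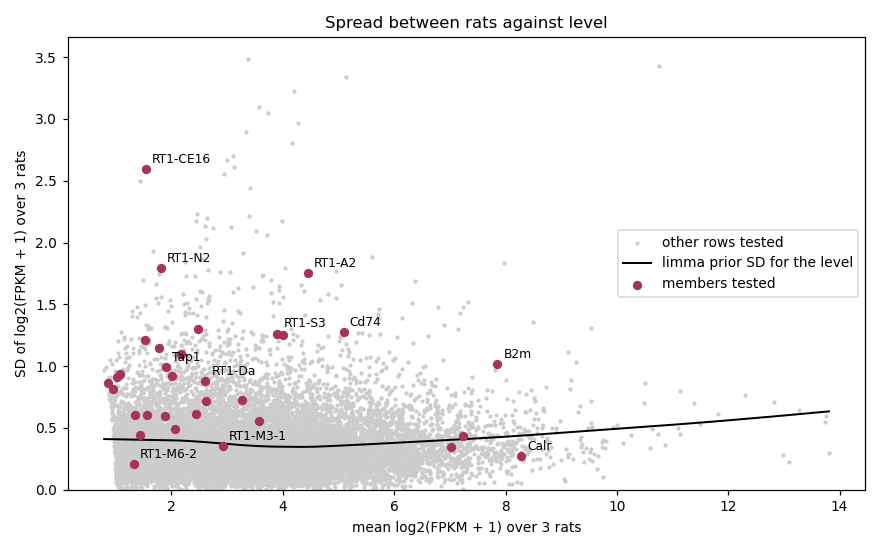
SD over the 3 rats against the mean, both of log2(FPKM + 1), for 32 tested members (red) and the other tested rows (grey), with limma's prior SD for each level as a line. RT1-CE16 has the largest SD of the members at 2.59, and Calr, RT1-M3-1 and RT1-M6-2 lie below the line.

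Other genes of antigen processing were compared in lists fixed by function, though with earlier results of these data known. All 5 immunoproteasome and PA28 genes, whose products take part in making peptides for class I, were highest in rat 33 and lowest in rat 12. Psme1 had 24.0, 45.3 and 70.1, Psmb10 had 12.0, 19.8 and 27.99, Psme2 had 4.82, 7.02 and 10.9, and Psmb9 had 1.54, 3.75 and 7.86. All 6 endosomal processing genes had that order too, with Ctsb at 413 ± 114, Ctsd at 283 ± 144, Ctsl at 117 ± 55.8 and Ctss, the protease that cuts Cd74, at 116 ± 50.2. Among all tested rows 42.0% were highest in rat 33 and 37.9% lowest in rat 12. Limma called 0 of the 11 rows in these lists over all rows tested, and 1 in each list had an unadjusted p under 0.05, against 5.96% of all tested rows.

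MHC-like genes outside RT1 included Fcgrt, the neonatal Fc receptor (19.9 ± 6.90), Hfe, which controls iron uptake (2.56, 0.561 and 6.69), and Mr1 (2.08, 2.29 and 4.67). Procr had 1.22 ± 0.984. All 4 were highest in rat 33, against 42.0% of all tested rows. None was called by limma, while 1 had an unadjusted p under 0.05, against 5.96% of all tested rows. A list of 5 further genes of folding and peptide supply was also highest in rat 33 in every row. It held the chaperone genes Hspa5 and Hsp90b1, the glycan enzyme genes Ganab and Uggt1 and the intramembrane protease gene Sppl2a. By mean level the first were Hspa5 (131 ± 22.1), Hsp90b1 (107 ± 37.1), Ganab (49.2, 59.8 and 71.2) and Uggt1 (12.6, 11.6 and 14.2), with 0 called by limma and 0 at an unadjusted p under 0.05.

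Of 10 genes that carry the interferon signal to MHC promoters, 9 were tested. Of the 9, 7 were highest in rat 33, against 42.0% of all tested rows, and 6 by the median of ratios or without the mitochondrial genome. Limma called 0, with 3 at an unadjusted p under 0.05, against 5.96% of all tested rows. By mean level the first were the kinase gene Jak1 (57.5, 54.8 and 59.2), the interferon gamma receptor genes Ifngr1 (26.5, 35.1 and 49.6) and Ifngr2 (15.2, 21.7 and 17.1), and Irf7 (1.75, 7.61 and 37.8). Ifng, interferon gamma itself, was listed at 0 in all rats. Irf7, an interferon-induced factor, was lowest in rat 12 and highest in rat 33. Of the 32 tested members 15 were lowest in rat 12 and 17 in rat 24-4, and a link to Irf7 was not tested.

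Markers of some cell types were also highest in rat 33, while no cortical neuron marker was. Their part in the results was not tested. In bulk tissue, more cells of a type and more RNA per cell cannot be told apart. Among all tested rows 42.0% were highest in rat 33, 37.9% lowest in rat 12 and 33.3% lowest in rat 24-4. The 8 microglial markers summed to 162, 248 and 419, and every one was highest in rat 33 and lowest in rat 12. Choroid plexus markers summed to 3301, 128 and 13010. Limma called 3 of the 5 at an adjusted p under 0.05, against 0.102% of all tested rows, and all 5 were lowest in rat 24-4. Of the 5 tested class II rows, Cd74, RT1-Da and RT1-Ba were lowest in that rat, and RT1-DMa and RT1-DMb in rat 12. Of all 32 tested members 17 were lowest in rat 24-4. Astrocyte markers summed to 1146, 2101 and 2819, oligodendrocyte markers to 4774, 5981 and 10842, and cortical neuron markers to 2628, 1952 and 1265. Single markers did not all follow these sums. Of 5 astrocyte markers, 3 were highest in rat 33, among them Gfap (271, 937 and 1585). The other 2 were highest in rat 24-4, among them Aldoc (269, 286 and 232). Of 5 cortical neuron markers, 3 were highest in rat 12 and 2 in rat 24-4.

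Markers of blood and border immune cells were also summed. The 5 B cell markers summed to 0.267, 0.0461 and 0.888, and those of border macrophages to 3.88, 3.25 and 7.61. Of 7 dendritic cell markers, summing to 7.22, 5.61 and 7.40, Flt3 (4.94, 3.37 and 3.27) and Zbtb46 (1.92, 1.56 and 2.11) gave most. Cd209a was listed at 0 in all rats, while Xcr1 and Clec9a had no value above 0.687. T and NK cell markers summed to 5.25, 10.3 and 20.5, of which Cd4, also a gene of rat macrophages and microglia, gave 4.17, 4.11 and 16.6, and Gzma was listed at 0. Cd3e had 4.81 in rat 24-4 against 0.116 and 0.477, while Cd3d there had 0.0804. Of the 6 neutrophil and monocyte markers 5 were measured, summing to 3.90, 2.24 and 4.72, with Mpo listed at 0. Endothelial markers, 4 of 5 measured, summed to 53.9, 80.7 and 70.8. Cldn5, with 33.6, 62.2 and 42.6, was highest in rat 24-4, and Flt1, Tek and Kdr were highest in rat 33, though Flt1 was highest in rat 12 by the median of ratios or without the mitochondrial genome.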

How the data were processed

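RNA of motor cortex was sequenced as 1 library per rat. Per the labels' protocols, mRNA was separated, fragmented and made into libraries. Values were deposited as FPKM, which the authors made by counting, normalizing and scaling in a script, per the series' design text. The submitters' processing notes list HISAT2 (2.0.4), StringTie (1.3.0) and Rnor_6.0. Neither the normalization, nor the strand setting, nor the handling of fragments shared by similar genes is given in the sources used here. An abundant transcript lowers every other FPKM of its library.

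To estimate depth, low values (up to 10 fragments) of loci of 400 bp or less were read as whole multiples of 1 fragment. At 15330000, 17230000 and 13000000 fragments, 93.3%, 93.1% and 93.4% of 644, 622 and 663 such values were whole to within 0.02. An FPKM of 1 on 1 kilobase then stands for 15.3 fragments in rat 12 (95% Poisson interval 8.64 to 25.2), 17.2 in rat 24-4 (10.1 to 27.5) and 13.0 in rat 33 (6.92 to 22.2), which cover counting error only. Libraries shared no equal value above 0.

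Log2(FPKM + 1), used throughout, compresses low genes. Rows with a mean FPKM of at least 1 (13754) entered limma 3.58.1 (R 4.3.3) with an intercept, a trended robust prior (7.96 degrees of freedom), a one-sided F test of residual over prior variance, Benjamini-Hochberg adjustment and a threshold of 0.05. The script was tested on simulated data. The limma p-values set the spread of a row between these rats against the spread usual for its level. Sign-flip p-values concern differences between genes within rats. Members were named by value where their mean was at least 1 or where a row at 0 in some rats reached 1 in another. Up to 4 genes by mean were named from other pathway lists. Cell types are given by sums. Members, lists and motifs were chosen with earlier results of these data known. RefSeq promoters (GRCr8) were matched by symbol for 45 of 59 names. Python 3.11.15, numpy 2.4.6, pandas 2.3.3, scipy 1.17.1 and matplotlib 3.10.9 were used. Alternatives were other pseudocounts, filters, scalings and priors, and leaving out each rat.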

Additional observations from a re-analysis of the deposited data

How the results depend on the processing

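The limma count of 0 variable members stayed at 0 with pseudocounts of 0.1 and 0.5, a mean FPKM of at least 0.1, no filter, a prior that is not robust and the mitochondrial genome left out. It was 1 after rescaling to a common sum and 1 after median-of-ratios scaling, RT1-CE16 in both, and ran from 0 to 4 with a rat left out. Of the rows tested, 30 members were highest in rat 33, and 29 to 41 under other filters and scalings except without a filter, where 47 of 55 were, since more rows entered. With the filter set on rats 12 and 24-4 alone, an alternative chosen after seeing the data, it was 25 of 27 against 40.3% of rows. The median log2 values over a role moved with the pseudocount, the filter and the scale, by construction. With a pseudocount of 0.1 they were -0.80 for class I, -0.19 for class II, -0.10 for costimulation and -1.15 for regulators, and with 0.5 they were 0.0043, 0.38, 0.42 and -0.13. With rows of a mean FPKM of at least 1 they were 1.99, 2.19 and 1.34 for class I, class II and costimulation. After rescaling to a common sum, which moved the median of all tested rows from 3.45, 3.43 and 3.56 to 4.45, 4.47 and 4.53, they were 1.03, 1.41, 1.46 and 4.24 for class I, class II, costimulation and peptide loading. Tap1 minus Tap2, -0.16 on average, ran from -0.44 to 0.15 with a rat left out and was 0.028 with the lower of the Tap2 rows, an alternative chosen after seeing the data, so its sign is not settled. The other 9 pair differences kept their sign. Counting values under 0.1 as 0 gave 15 member rows listed at 0 in some rats in place of 13. No paired analysis was possible because there is 1 group. Depth limits the low rows: 28 members had a mean FPKM under 1.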
